A study of Homo sapiens with 6 samples.

Results

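The epithelial-mesenchymal transition (EMT) genes FN1, ACTA2, VIM, CDH1, CDH2, EPCAM, SNAI1, SNAI2, ZEB1 and TWIST1 were read out in irradiated HK-2 cells. They were chosen by name as epithelial and mesenchymal markers and the transcription factors that act on them, with earlier results of these data known. All 10 were present among the 38648 genes and gene copies listed, each as a single entry. HK-2 is an immortalized human proximal tubule epithelial cell line. Bulk RNA-seq was available for 6 libraries, 3 of the negative control lentivirus group (IR+NC-LV) and 3 of the group given a lentivirus that overexpresses PRDM16 (IR+PR-LV). PRDM16 is a zinc finger transcriptional regulator of the PRDM family, and the study asked what it does in senescent tubular cells. All cells of both groups had received a single X-ray dose of 8 Gy and were collected 7 days later, so that no unirradiated or uninfected cells entered the comparison. Per the study's methods, puromycin was used to remove cells that had not taken up virus. The sources do not say whether the 3 libraries of a group came from separate cultures, so p-values measure the spread between these libraries, which may be technical.

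Epithelial cells are held in sheets by cadherin contacts. In the transition, CDH1 (E-cadherin) and other junction genes are repressed, CDH2 (N-cadherin) takes the place of E-cadherin, and the cell gains vimentin filaments and secretes fibronectin. SNAI1, SNAI2, ZEB1 and TWIST1 drive this program, the SNAI and ZEB proteins by binding E-box sequences in the CDH1 promoter. In the kidney, proximal tubule cells are unusual among epithelia in that N-cadherin is their main classical cadherin, and injured tubules are known for gaining mesenchymal genes.

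Between 13407074 and 28540041 reads were assigned to genes in a library. PRDM16 had 2, 0 and 1 counts in IR+NC-LV against 14, 10 and 8 counts in IR+PR-LV, a depth-corrected ratio of 8.51 (exact 95% interval for counting error 2.66 to 43.4). The groups did not overlap, and the exact permutation test over 3 against 3 libraries cannot go below the p of 0.1 that it gave. Of 13 proximal tubule markers, 5 had a mean of at least 1 TPM (transcripts counted per gene length, scaled to an equal sum in every library), led by PAX8 at 138 TPM and GGT1 at 69.9 TPM, while LRP2, SLC22A6 and HNF4A were below 0.1 TPM. The summed TPM of these markers was 218 to 243 in IR+NC-LV and 199 to 250 in IR+PR-LV. Most of this sum was PAX8, at 128 to 158 TPM over the 6 libraries, and 8 of the 13 were below 1 TPM. Of 6 fibroblast markers only LUM exceeded 1 TPM, at 123 TPM, while PDGFRA, DCN, COL1A2 and PDPN were below 0.1 TPM, and the list summed to 117 to 127 TPM in IR+NC-LV and 93.7 to 140 TPM in IR+PR-LV. By the mean of all 6 libraries, none of 5 endothelial and none of 6 distal tubule and podocyte markers reached 1 TPM. The endothelial markers summed to 0.398 to 0.640 TPM in IR+NC-LV and 0.366 to 0.454 TPM in IR+PR-LV. The distal tubule and podocyte sums did not overlap, at 1.12 to 1.36 TPM against 0.488 to 0.585 TPM, and were mostly NPHS1 (nephrin), at 1.02, 0.986 and 1.22 TPM against 0.346, 0.432 and 0.352 TPM (log2 fold change -1.43, adjusted p = 0.0755 by edgeR). The 5 leukocyte markers also summed to separate ranges, 187 to 205 TPM against 159 to 175 TPM, mostly CD68, a lysosomal protein gene. CD68 was at 193 ± 10.2 TPM against 161 ± 7.51 TPM (mean ± SD, n = 3). Its log2 fold change was -0.22 (adjusted p = 0.405 by edgeR). In TPM its groups did not overlap, beside 11.2% of all genes tested that were lower in this way. On the scale of the test, counts relative to the library total, they overlapped. Of the 5 markers 2 reached 1 TPM, CD68 and CD14, the latter at 4.14 TPM over all libraries. LYZ, the leukocyte antigen gene PTPRC and CD3E were at 0.850, 0.0424 and 0.0377 TPM. The part of these markers in the results below was not tested.

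In the irradiated cells of both groups, the mesenchymal genes VIM, FN1 and CDH2 were abundant and CDH1 was barely counted, while the epithelial gene EPCAM was expressed. Levels of different genes are compared here in TPM, which corrects for gene length, unless counts are named. By mean TPM over the 6 libraries, VIM and FN1 were ranks 58 and 59 of all genes listed, CDH2 rank 770, SNAI2 2712, EPCAM 3699, SNAI1 5297, ZEB1 6368, TWIST1 7393, ACTA2 14100 and CDH1 17023. For scale, between 14471 and 15197 genes reached 1 TPM in a library, with a median of 17.6 to 18.0 TPM among them. The order of the 10 members was the same in all 6 libraries except for VIM and FN1, of which VIM was the higher in 4 of 6. The ranges over the 6 libraries overlapped between neighbours for VIM and FN1, and for SNAI2 and EPCAM, although SNAI2 was above EPCAM within each library. All other neighbours in the order were separated in range.

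**Figure D1:**
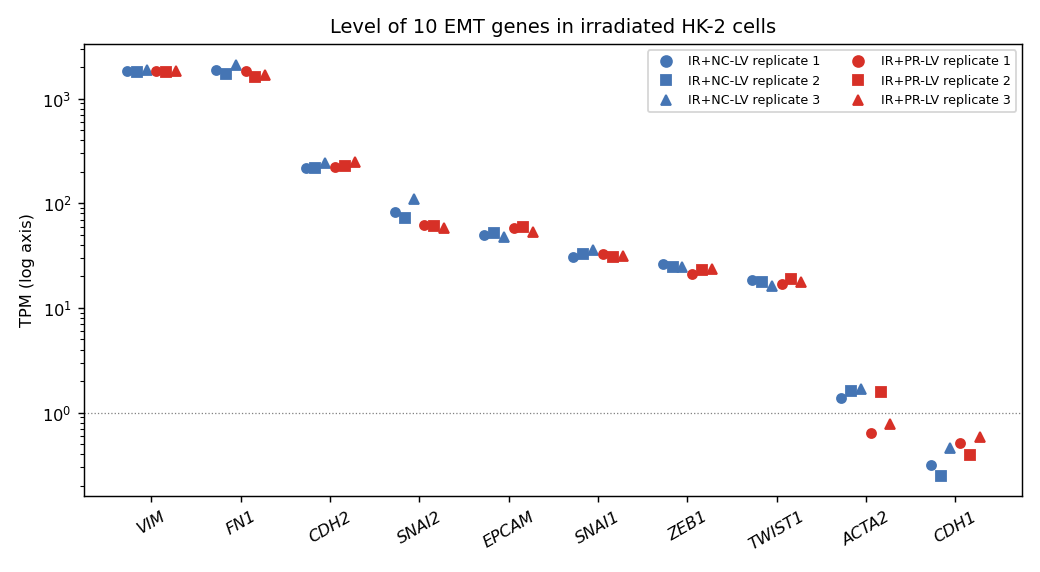
Deposited TPM (log axis) of each EMT gene in each library, ordered by mean TPM, with IR+NC-LV in blue, IR+PR-LV in red and symbols for replicate numbers. VIM and FN1 lie between 1595 and 2117 TPM, ACTA2 lies on either side of the dotted line at 1 TPM, and CDH1 lies below it in all 6 libraries.

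The epithelial adhesion members were far apart in level. CDH1 encodes E-cadherin, the calcium-dependent adhesion molecule of epithelial adherens junctions (hg38 chromosome 16, 68737292 to 68835537, plus strand). The control libraries held 8, 8 and 9 CDH1 counts, and those of IR+PR-LV held 13, 17 and 16. These counts gave 0.318, 0.249 and 0.463 TPM in IR+NC-LV (0.343 ± 0.109, mean ± SD, n = 3 here and below) and 0.510, 0.397 and 0.581 TPM in IR+PR-LV (0.496 ± 0.0929). The highest control library lay above the lowest IR+PR-LV library, so the groups overlapped in TPM although not in raw counts, which also carry the depth of each library. The edgeR log2 fold change of IR+PR-LV against IR+NC-LV was 0.59 (SE 0.33, 95% interval -0.15 to 1.33, adjusted p = 0.569). Pooled over libraries, 46 counts against 25 gave a depth-corrected ratio of 1.47 with an exact 95% interval of 0.883 to 2.49, which covers counting error only.

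EPCAM, a homophilic adhesion glycoprotein of simple epithelia, was present at a moderate level (chromosome 2, 47369311 to 47387020, plus strand). Its TPM was 49.9, 52.3 and 47.3 in IR+NC-LV (49.9 ± 2.50) and 58.0, 59.6 and 52.7 in IR+PR-LV (56.8 ± 3.64). In TPM the lowest IR+PR-LV library stood just above the highest control library. In CPM (counts relative to the library total, scaled by the TMM method and not divided by length), the scale of the test, the values were 23.7, 25.4 and 21.0 against 27.9, 29.0 and 25.0, and there the groups overlapped. The log2 fold change was 0.22 (SE 0.10, 95% interval 0.001 to 0.44) with an unadjusted p of 0.049 and an adjusted p of 0.474 by edgeR, and EPCAM did not pass the threshold.

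Among the mesenchymal members, VIM and FN1 were near the top of the transcriptome. VIM encodes the intermediate filament vimentin (chromosome 10, 17228241 to 17237593, plus strand). It stood at 1845, 1787 and 1891 TPM in IR+NC-LV (1841 ± 52.2) and at 1855, 1812 and 1854 TPM in IR+PR-LV (1840 ± 24.1). The TPM ranges overlapped and the means nearly coincided. On the CPM scale the 3 IR+PR-LV libraries, at 1246, 1228 and 1227, lay above the controls at 1224, 1207 and 1171, and the log2 fold change was 0.04 (SE 0.05, 95% interval -0.08 to 0.16, adjusted p = 0.830 by edgeR). Its sign turned with the scale, as limma on log2(TPM + 1) gave -0.0003.

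FN1 encodes the extracellular matrix glycoprotein fibronectin (chromosome 2, 215360862 to 215436167, minus strand). By count, which is not corrected for gene length, it was rank 2 or 3 of all genes in each library and held between 0.431% and 0.553% of all counts. By TPM its rank in a library was 40 to 66. Its TPM was 1898, 1706 and 2117 in IR+NC-LV (1907 ± 206) and 1831, 1595 and 1681 in IR+PR-LV (1702 ± 119). The highest IR+PR-LV library exceeded the lowest control library, so the groups overlapped. The log2 fold change was -0.12 (SE 0.07, 95% interval -0.28 to 0.04, adjusted p = 0.598 by edgeR).

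The bases just upstream of the FN1 exons are shown because cAMP response elements are a known feature of this promoter. RefSeq promoter windows on GRCh38.p14 were matched by symbol to 5 of the 10 members, FN1, VIM, ZEB1, ACTA2 and CDH2. Each window runs from 250 bases before to 50 bases after a start site. The run below is chr2:215436168-215436318 on the minus strand, 5′ to 3′, 151 bases ending where the first FN1 exon of the deposited annotation begins, and it lies over an exon of LOC105373868. Capitals mark TGACGTCA, which is its own reverse complement, lies 84 bases before that exon and is held by 1.85% of all 35116 windows of 300 bases.
FN1 upstream: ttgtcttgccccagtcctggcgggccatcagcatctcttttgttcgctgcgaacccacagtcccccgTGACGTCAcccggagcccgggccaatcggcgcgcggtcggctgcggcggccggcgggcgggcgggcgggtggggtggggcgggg
This motif was chosen after the sequence had been seen, and its presence is a description of letters only.

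CDH2, the gene of N-cadherin, was higher in TPM than CDH1 and than each of the 6 cadherins in the list of cadherins and catenins given later (chromosome 18, 27932878 to 28177130, minus strand). It stood at 218, 217 and 241 TPM in IR+NC-LV (225 ± 13.8) and at 224, 226 and 247 TPM in IR+PR-LV (233 ± 13.0). The TPM ranges overlapped. On the CPM scale the values of 320, 325 and 348 in IR+PR-LV all lay above the 307, 311 and 317 of the controls. The log2 fold change was 0.09 (SE 0.06, 95% interval -0.04 to 0.22, adjusted p = 0.645 by edgeR).

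The balance between the cadherins was on the side of N-cadherin in each library. The ratio of CDH2 to CDH1 in TPM was 685, 872 and 521 in IR+NC-LV (693 ± 176) and 440, 570 and 426 in IR+PR-LV (478 ± 79.3). The groups overlapped in this ratio, which rests on the 8 to 17 counts of CDH1 in a library. VIM exceeded CDH1 by 3191 to 7186 times, and EPCAM exceeded CDH1 by 90.7 to 210 times. CDH2 exceeded EPCAM by 3.79 to 5.09 times, and FN1 stood at 0.880 to 1.12 times VIM.

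ACTA2 encodes smooth muscle alpha-actin, the marker of myofibroblasts (chromosome 10, 88935074 to 88991397, minus strand). It had 13, 19 and 12 counts in IR+NC-LV and 6, 25 and 8 in IR+PR-LV. In TPM these were 1.39, 1.59 and 1.66 in IR+NC-LV (1.55 ± 0.140) and 0.635, 1.57 and 0.784 in IR+PR-LV (0.998 ± 0.505). IR+PR-LV replicates 1 and 3 were below all controls, while replicate 2 lay within their range. The log2 fold change was -0.50 (SE 0.37, 95% interval -1.33 to 0.33, adjusted p = 0.684 by edgeR), and it was -1.08 without IR+PR-LV replicate 2, the largest shift that leaving out a library gave. Exons of FAS and ACTA2-AS1 on the opposite strand cover 11.2% and 28.5% of the ACTA2 exon bases, and FAS had 3840 counts over the 6 libraries against 83 for ACTA2. Since the strand setting of the counting is not given in the sources used here, the ACTA2 counts are uncertain.

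The transcription factor members were all expressed, at 16.3 to 109 TPM. SNAI2 (Slug), a zinc finger repressor of E-cadherin, was the highest of them and the member with the smallest p (chromosome 8, 48917598 to 48921429, minus strand). It stood at 83.2, 72.6 and 109 TPM in IR+NC-LV (88.4 ± 18.9) and at 61.6, 60.8 and 58.2 TPM in IR+PR-LV (60.2 ± 1.78). On the CPM scale the values were 55.8, 49.6 and 68.5 against 41.8, 41.6 and 38.9. All 3 IR+PR-LV libraries were below all 3 controls on either scale, and SNAI2 was the only member for which this held on both. The controls also varied more, with a coefficient of variation of 16.6% in CPM against 3.95% in IR+PR-LV, and control replicate 3 was the highest library.

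The log2 fold change of SNAI2 was -0.50 (SE 0.11, 95% interval -0.76 to -0.25). Its unadjusted p of 0.001 was the 118th smallest of the 15340 genes tested, and its adjusted p was 0.192 by edgeR, so SNAI2 did not pass the threshold of 0.05. The call depended on the tool and the filter. DESeq2, which called 166 of the 15101 genes it gave an adjusted p (1.10%), gave -0.49 with an adjusted p of 0.00694. Without the filter on low counts, edgeR called 342 of 28831 genes (1.19%) and gave -0.49 with an adjusted p of 0.000836 for SNAI2. Leaving out single libraries gave values from -0.61 to -0.37 with adjusted p between 0.0829 and 0.509 by edgeR.

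SNAI1 (Snail), the close relative of SNAI2, lay at a lower level (chromosome 20, 49982980 to 49988886, plus strand). Its TPM was 30.5, 32.6 and 36.0 in IR+NC-LV (33.1 ± 2.81) and 32.8, 30.4 and 31.5 in IR+PR-LV (31.5 ± 1.19). The groups overlapped, and the log2 fold change was -0.03 (SE 0.09, 95% interval -0.23 to 0.17, adjusted p = 0.933 by edgeR). The ratio of SNAI2 to SNAI1 in TPM was 2.73, 2.22 and 3.04 in IR+NC-LV and 1.88, 1.999 and 1.85 in IR+PR-LV, and these ratios did not overlap between the groups. They are built from the same SNAI2 values and are not a separate result. The share of other gene pairs whose ratios separate was not computed.

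**Figure D2:**
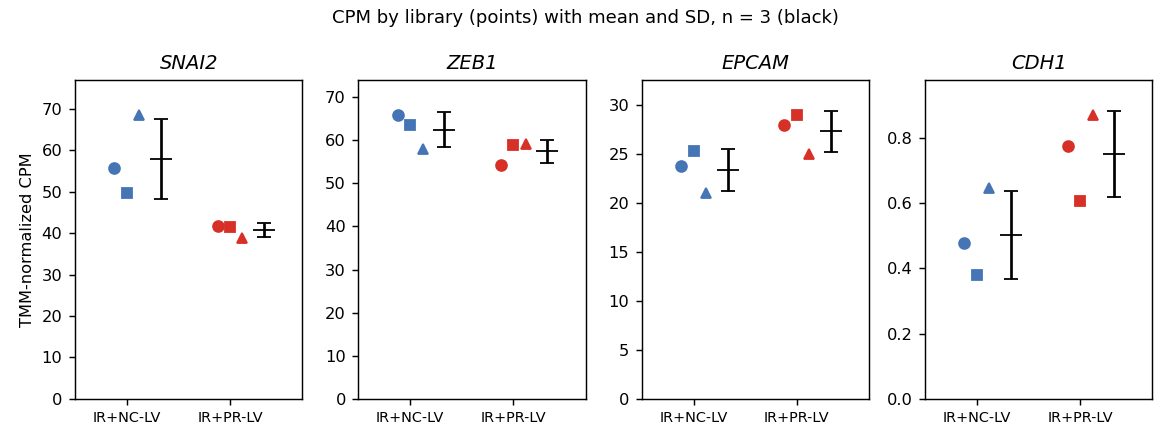
TMM-normalized CPM (linear axes from 0) of SNAI2, ZEB1, EPCAM and CDH1 in the 3 libraries of each group, with circles, squares and triangles for replicates 1, 2 and 3 and black bars for the mean and SD. SNAI2 is separated between the groups at 49.6 to 68.5 against 38.9 to 41.8 CPM, while the groups of ZEB1, EPCAM and CDH1 overlap.

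ZEB1, a zinc finger and homeodomain repressor of epithelial genes, was measured at 26.1, 24.7 and 24.7 TPM in IR+NC-LV (25.2 ± 0.810) and at 21.2, 22.9 and 23.5 TPM in IR+PR-LV (22.5 ± 1.17). In TPM the groups did not overlap. On the CPM scale, with 65.8, 63.5 and 58.0 against 54.2, 58.9 and 59.1, control replicate 3 lay within the IR+PR-LV range. The log2 fold change was -0.12 (SE 0.07, 95% interval -0.29 to 0.05, adjusted p = 0.608 by edgeR). The gene occupies chromosome 10, 31318417 to 31529804, plus strand, and 6.78% of its exon bases are shared with ZEB1-AS1 on the opposite strand.

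The ZEB1 promoter is shown because it was the only member promoter in the table that held CACCTG or CAGGTG, the E-box form and its reverse complement that SNAI and ZEB proteins bind. Both forms were searched, which covers both strands, and 2 of the 13 windows of the 5 members held a match, both among the 7 ZEB1 windows. Of all 35116 windows, 20.6% held one, and the wider form CANNTG, which includes it, was in 68.7%. Of the 2 matched ZEB1 windows, the one that holds the run below had 1 match, and the one at chr10:31318966-31319265, which is not printed, had 3. The run below is chr10:31318167-31318416 on the plus strand, 250 bases ending before the first ZEB1 exon, from RefSeq on GRCh38.p14, and it lies over an exon of ZEB1-AS1. Capitals mark CAGGTG, which begins 57 bases before the ZEB1 exon.
ZEB1 promoter: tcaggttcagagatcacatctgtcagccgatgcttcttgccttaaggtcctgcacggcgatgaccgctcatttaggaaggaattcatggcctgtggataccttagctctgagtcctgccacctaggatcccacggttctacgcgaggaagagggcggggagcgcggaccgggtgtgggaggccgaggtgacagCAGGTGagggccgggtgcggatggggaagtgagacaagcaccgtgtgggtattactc
The windows of FN1, VIM, ACTA2 and CDH2 did not hold these letters, and CDH1, EPCAM, SNAI1, SNAI2 and TWIST1 were not matched to a window.

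TWIST1, a basic helix-loop-helix factor, was the lowest of the transcription factor members (chromosome 7, 19113047 to 19117636, minus strand). It stood at 18.5, 17.7 and 16.3 TPM in IR+NC-LV (17.5 ± 1.12) and at 17.1, 18.8 and 17.7 TPM in IR+PR-LV (17.9 ± 0.899). The groups overlapped, and the log2 fold change of 0.07 (SE 0.12, 95% interval -0.22 to 0.35, adjusted p = 0.883 by edgeR) turned to -0.01 without IR+NC-LV replicate 3.

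Across the members, 0 of 10 passed the edgeR threshold at an adjusted p under 0.05, beside 10 of 15340 genes tested (0.0652%), of which 3 were higher (0.0196%) and 7 were lower (0.0456%) with PR-LV. An unadjusted p under 0.05 by edgeR was found for 2 of 10 members, EPCAM higher and SNAI2 lower, beside 1614 genes (10.5%), with 4.55% of all genes higher and 5.97% lower. DESeq2 called 1 of 10 members, SNAI2, beside 1.10% of all genes. All 10 members passed the filter on low counts. CDH1 passed mainly through IR+PR-LV, at 0.774, 0.608 and 0.870 CPM against 0.477, 0.380 and 0.648 CPM in IR+NC-LV. ACTA2 passed mainly through IR+NC-LV, at 0.775, 0.902 and 0.864 CPM against 0.357, 0.894 and 0.435 CPM in IR+PR-LV. Each entered the test through the group where it was higher, so its sign is not independent of the filter. The log2 fold changes of the 10 members were above 0 for 5 and below 0 for 5. Their median was 0.0060 beside 0.0044 for all genes tested. On the CPM scale 3 of 10 members did not overlap between the groups, VIM and CDH2 higher and SNAI2 lower in IR+PR-LV, beside 17.0% of all genes tested, 7.46% higher and 9.54% lower. On the TPM scale 3 of 10 did not overlap, EPCAM higher and SNAI2 and ZEB1 lower, beside 15.6% of all genes tested, 4.36% higher and 11.2% lower. The epithelial members CDH1 and EPCAM both had positive values, 2 of the 4 mesenchymal members did, and 3 of the 4 transcription factors had negative values. Among all genes tested 51.1% were above 0 and 48.9% below, and nothing is read from these sign counts. In bulk RNA, fewer cells expressing a gene and less RNA per cell cannot be told apart.

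**Figure D3:**
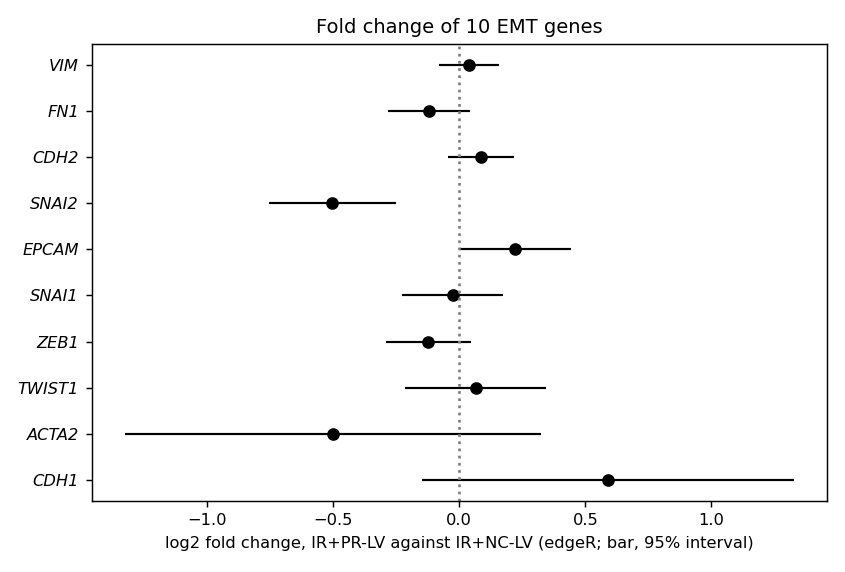
Log2 fold change of each EMT gene, IR+PR-LV against IR+NC-LV, from edgeR on all 6 libraries (point) with its 95% interval (bar), in the order of mean TPM. The intervals of SNAI2 and EPCAM do not reach 0, and none of the 10 passed the adjusted threshold, with the widest intervals for ACTA2 and CDH1.

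Further genes of the program were taken from 6 lists, and none of their genes passed the threshold of 0.05 in the edgeR fit. The genes with an unadjusted p under 0.05 by edgeR were CTNND1, CGN, F11R, ESRP2, SPARC, ZEB2 and KDM1A, 7 of the 67 genes tested in these lists (10.4%) beside 10.5% of all genes, so that their number was that of the background. DESeq2 called CGN alone, beside 1.10% of all genes. Of 10 cadherins and catenins, 4 were below 1 TPM, among them CDH3 (P-cadherin) at 0.241 TPM and CDH11 at 0.0107 TPM (3 counts over the 6 libraries). The kidney cadherins CDH6 and CDH16 stood at 73.8 and 3.30 TPM, and the alpha- and beta-catenin genes CTNNA1 and CTNNB1, whose products tie cadherins to actin, at 298 and 263 TPM. The cadherins CDH2 and CDH6 and these catenins were at least 65.3 TPM in every library while CDH1 was not above 0.581 TPM. Of the 8 genes tested in this list the median log2 fold change was 0.03, and CTNND1 (p120-catenin) had -0.40 with an adjusted p of 0.451 by edgeR. CTNND1 shares 88.5% of its exon bases with TMX2-CTNND1 on the same strand, so its counts are uncertain.

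The tight junction, desmosome and polarity genes spanned a wide range of levels. Of 22 genes, 16 reached 1 TPM, led by CLDN1 (claudin-1) at 322 TPM, the desmosomal cadherin DSG2 at 149 TPM and CLDN4 at 109 TPM. OCLN (occludin) was at 0.530, CLDN3 at 0.896 and CLDN7 at 0.129 TPM. OCLN and CLDN7 are listed in 2 copies each, and the values are of the copy with the most counts. How reads matching both copies were counted is not given in the sources used here, so these 2 low values are uncertain. CGN, which encodes the tight junction plaque protein cingulin, stood at 2.77, 2.11 and 3.39 TPM in IR+NC-LV (2.76 ± 0.642) and at 1.17, 0.976 and 0.810 TPM in IR+PR-LV (0.984 ± 0.178). All 3 IR+PR-LV libraries were below all controls. Its log2 fold change was -1.43 (SE 0.22, 95% interval -1.92 to -0.94) with an adjusted p of 0.071 by edgeR, of 0.00120 by DESeq2, of 3.74e-05 by edgeR without the filter on low counts and of 0.0413 by edgeR without IR+NC-LV replicate 2, where 0.179% of all genes were called. F11R (junctional adhesion molecule A) was at 64.3, 64.3 and 64.7 TPM against 70.2, 69.2 and 70.1 TPM, with a log2 fold change of 0.15 and an adjusted p of 0.422 by edgeR. The median log2 fold change of the 18 genes tested was -0.0042.

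Regulators of the epithelial state were split in level. Of 13 genes, 8 reached 1 TPM. The epithelial splicing regulator ESRP1 was at 0.270 TPM. GRHL2 and OVOL1, transcription factors that restrain EMT, were at 0.00389 and 0.00461 TPM, from 1 count each over the 6 libraries. Their relatives GRHL1 and OVOL2 were higher, at 3.85 and 1.55 TPM. Of the same list, the ETS factor ELF3 stood at 130 TPM and the protease inhibitors SPINT2 and SPINT1 at 412 and 23.0 TPM. ESRP2 was at 6.27, 5.79 and 5.93 TPM in IR+NC-LV and 8.05, 7.12 and 7.56 TPM in IR+PR-LV. The groups of ESRP2 did not overlap, and its log2 fold change was 0.37 (SE 0.10, adjusted p = 0.264 by edgeR), but 42.2% of its exon bases lie opposite NFATC3, which leaves the counts uncertain. The 8 genes tested of 13 had a median log2 fold change of 0.02.

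The contractile and matrix genes also divided. Of 12 contractile and cytoskeletal genes, 7 reached 1 TPM. TPM1 at 378 TPM, CNN2 at 304 TPM and CALD1 at 218 TPM, all actin-binding proteins, were abundant. The smooth muscle genes were split. MYL9, CNN1 and TAGLN stood at 196, 24.5 and 22.1 TPM, while MYH11 and ACTG2 were at 0.0308 and 0.427 TPM, beside ACTA2 at 0.635 to 1.66 TPM. The MYH11 value is of 1 of 2 listed copies, and 52.4% of the TAGLN exon bases lie opposite PCSK7, so both values are uncertain. Of 16 matrix and surface genes, 12 reached 1 TPM, led by SPARC at 938 TPM, the lysyl oxidase LOXL2 at 577 TPM and the hyaluronan receptor CD44 at 488 TPM. COL3A1, POSTN and FAP, genes of activated fibroblasts, were at 0.588, 0.314 and 0.0934 TPM. Other matrix genes of the same list were expressed, with LOX, FBN1, COL5A1, TNC and COL1A1 at 154, 104, 64.1, 25.3 and 10.5 TPM. SPARC, a matrix glycoprotein gene, had 912, 886 and 925 TPM in IR+NC-LV and 995, 969 and 942 TPM in IR+PR-LV, with a log2 fold change of 0.13 and an adjusted p of 0.452 by edgeR. The median log2 fold changes were 0.08 for the 9 contractile and 0.06 for the 14 matrix and surface genes tested, beside 0.0044 for all genes. Without IR+PR-LV replicate 1 they were 0.012 and -0.0003, and without IR+NC-LV replicate 3 the contractile median was 0.045.

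**Figure D4:**
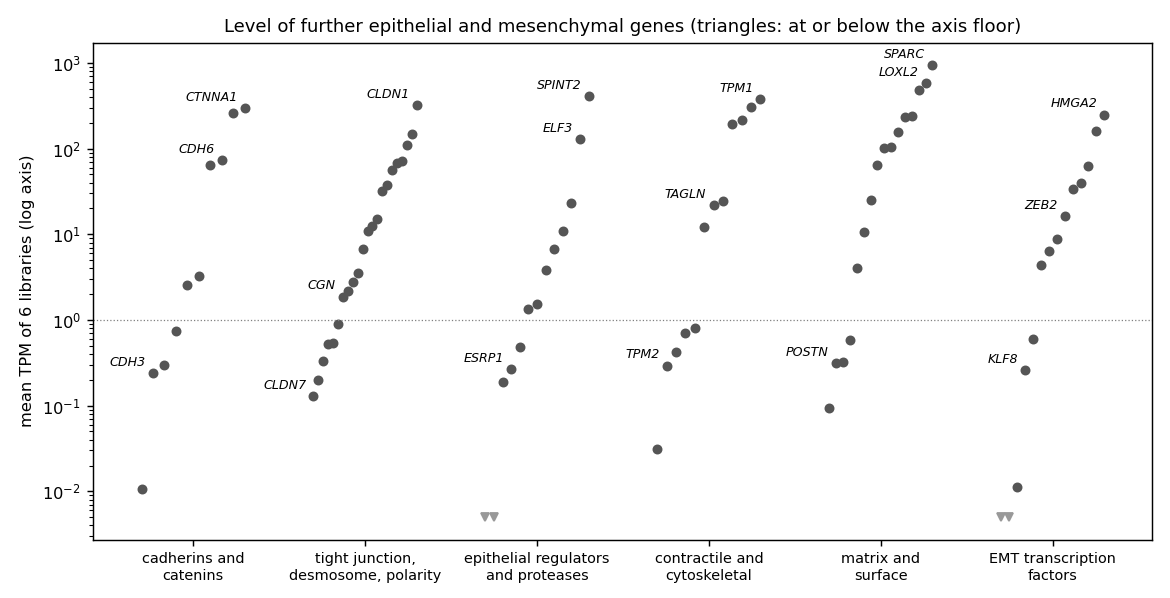
Mean TPM over the 6 libraries (log axis) of each gene in the 6 further lists, ordered by level within a list, with selected genes named and a dotted line at 1 TPM. Each list spans genes above 100 TPM and genes below 1 TPM, and triangles mark genes at or below the floor of the axis, among them TWIST2 and GSC with 0 counts.

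Of 14 further EMT transcription factors, 9 reached 1 TPM. HMGA2, an architectural chromatin protein, was the highest at 249 TPM, above all 4 transcription factor members, followed by the histone demethylase KDM1A at 162 TPM and SOX4 at 62.3 TPM. TWIST2 and GSC had 0 counts in all 6 libraries, which allows up to 0.105 to 0.224 CPM in a library (3 counts of its total, for counting error only). TWIST2 is listed in 2 copies, and how reads matching both were counted is not given in the sources used here. The bound for TWIST2 is therefore uncertain. ZEB2, the relative of ZEB1, stood at 17.8, 16.1 and 19.9 TPM in IR+NC-LV (17.9 ± 1.93) and at 13.4, 14.3 and 15.3 TPM in IR+PR-LV (14.3 ± 0.985), and the groups did not overlap. Its log2 fold change was -0.28 (SE 0.08, adjusted p = 0.279 by edgeR). KDM1A, at 154, 145 and 163 TPM against 174, 163 and 174 TPM, had a log2 fold change of 0.19 (SE 0.06, adjusted p = 0.324 by edgeR). The median log2 fold change of the 10 genes tested was -0.04, with 7 of 10 below 0 beside 48.9% of all genes. The median was 0.0060 without IR+NC-LV replicate 3 and -0.0006 without IR+PR-LV replicate 2.

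**Figure D5:**
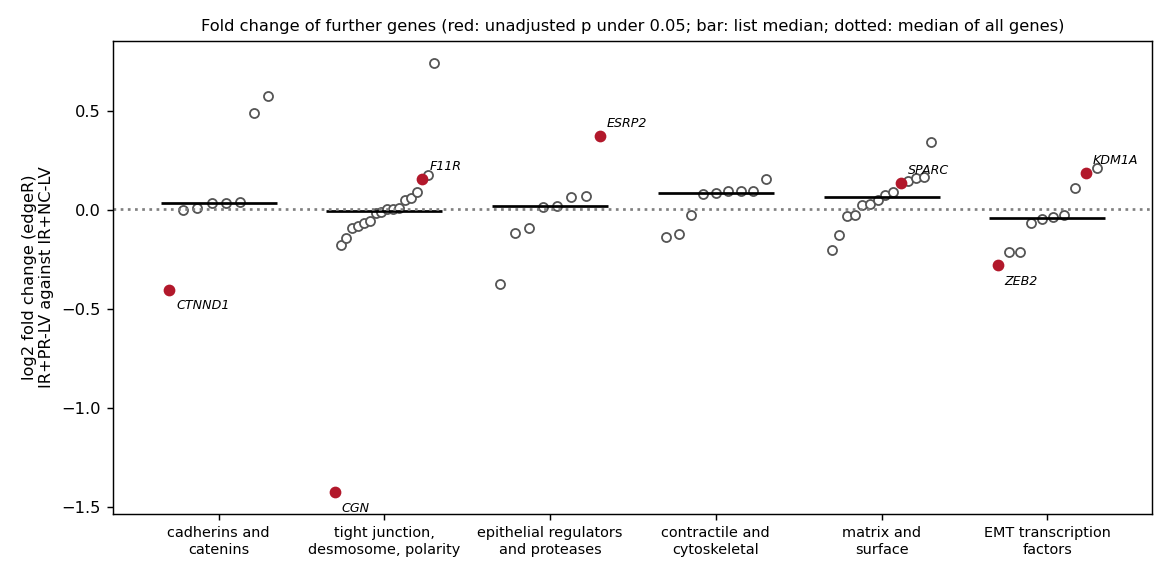
Log2 fold change (edgeR, IR+PR-LV against IR+NC-LV) of the genes tested in the 6 further lists, with filled red points for an unadjusted p under 0.05, a black bar for the list median and a dotted line for the median of all genes tested. The list medians lie between -0.04 and 0.08, CGN at -1.43 lies farthest from 0, and none of the genes passed the adjusted threshold.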

How the data were processed

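mRNA purified from total RNA with oligo(dT) beads was sequenced in 6 libraries of HK-2 cells, grouped by the treatment in the labels. After quality and adapter filtering, the authors deposited an unnormalized read count per gene together with TPM and FPKM for every library. The deposited TPM and FPKM follow from count, gene length and library total, so tests used counts; FPKM was used only in this check. The submitters' processing notes name featureCounts 2.0.1, DESeq2 1.16.1 and hg38; the aligner and strand setting are not given in the sources used here.

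Counts were filtered with filterByExpr (minimum count 10, minimum total 15), scaled by TMM and tested with edgeR 4.0.16 (glmQLFit, glmQLFTest) in R 4.3.3, with Benjamini-Hochberg adjustment over 15340 genes, a threshold of 0.05 and a common biological coefficient of variation of 0.106. Standard errors follow from the fold change and its F statistic. Depth of 13407074 to 28540041 counts limits CDH1 and ACTA2; intervals on count ratios cover counting error only. The script was tested on simulated data. Alternatives used DESeq2 1.42.0, limma 3.58.1 on log2(TPM + 1) and log2(TPM + 0.1), other scalings and filters, summed gene copies, a replicate block and left-out libraries.

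Named genes were PRDM16, the members, and genes of each list. Of each list they were up to 4 with the smallest unadjusted p under 0.05 and the 3 highest by TPM. Others, named for their low level, beside genes of low level or as kidney cadherins, were chosen after their values were seen. OCLN, CLDN7, MYH11, TWIST2 and PTPRC are listed in 2 copies each, of which the copy with the most counts was used. The members and lists were chosen with earlier results of these data known. The value of 1 proximal tubule marker is not reported here. Motifs were searched in RefSeq promoter windows (GRCh38.p14).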

Additional observations from a re-analysis of the deposited data

How the results depend on the processing

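The number of genes past the threshold was 10 by edgeR and moved to 166 with DESeq2, to 342 without the filter on low counts and to 3 with the replicate block, and the cause was not tested. Leaving out single libraries gave 1 to 28 genes, with 1 without replicate 1 of IR+NC-LV, 1 without replicate 3 of IR+PR-LV, 28 without IR+NC-LV replicate 2 and 16 without IR+NC-LV replicate 3. Members past the threshold moved from 0 to 1 (SNAI2) with DESeq2 and without the filter, and stayed at 0 when single libraries were left out. Of the tight junction, desmosome and polarity genes, 1 (CGN) passed with DESeq2, without the filter and without IR+NC-LV replicate 2, and leaving out single libraries gave 0 to 1. Of 148 member fold changes under alternatives, 143 kept their direction and side of the threshold, 2 (SNAI2) passed it, and 3 changed sign, VIM at -0.00032 with limma on log2(TPM + 1) and at -0.00032 on log2(TPM + 0.1), and TWIST1 at -0.012 without IR+NC-LV replicate 3, in a range of -0.012 to 0.11 when single libraries were left out. ACTA2 and CDH1 were not tested at 10 counts or more in every library. Counting members without overlap in TPM in place of CPM was added after the data had been seen and gave 3 either way, with SNAI2 the only member in both.

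Deviations from the group means correlated at -0.00884, 0.0514 and 0.0706 between libraries of the same replicate number, so the numbers were not taken as a pairing, and not every library correlated best with its own number. The replicate block left 0 members past the threshold.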
